A study of Mus musculus with 6 samples.

Results

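The prostaglandin genes studied here were 10 members, found by symbol among the 46983 genes of the deposited table. The list holds 5 genes of synthesis (Ptgs1, Ptgs2, Ptgis, Ptges and Ptgds) and 5 receptor genes (Ptger1, Ptger2, Ptger3, Ptger4 and Ptgir). Each was found, and each had enough signal to be tested. RNA-seq was performed on aortic valves of wild type C57BL/6J mice at postnatal day 2 (PND2, n = 3) and at 4 months of age (n = 3). Every library was a pool of the valves of 5 to 6 mice, and the labels name no treatment and give no sex for either age. The comparison asked how transcript levels differ between a valve that is still growing and a mature valve. Levels are RPKM, the reads on a gene per kilobase of its exons and per library size, so that levels of different genes can be set side by side.

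Prostaglandins are short-lived lipid signals made from arachidonic acid, which phospholipases free from the membrane. A cyclooxygenase (Ptgs1 or Ptgs2) turns arachidonic acid into an unstable intermediate, and a terminal synthase turns that into 1 of several prostanoids. Ptgis makes prostacyclin, Ptges makes prostaglandin E and Ptgds makes prostaglandin D. The products leave the cell and act on nearby cells through G protein-coupled receptors, the 4 Ptger receptors for prostaglandin E and Ptgir for prostacyclin. In the vessel wall, prostacyclin is known for relaxing smooth muscle and for keeping platelets from clumping.

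Library totals lay between 23810507 and 38994657 reads, and mitochondrial genes took 5.44 to 9.60% of reads on genes. The 8 interstitial cell genes summed to 6501 to 7152 RPKM at PND2 and 8033 to 10135 RPKM at 4 months. Of these 8 genes 2 were higher (Dcn and Lum) and 4 were lower (Col1a1, Col1a2, Col3a1 and Postn). Other cells were present at both ages. Summed smooth muscle markers were 7382 to 8549 RPKM at PND2 and 16638 to 27581 RPKM at 4 months, with 5 of 6 genes higher. Summed endothelial markers were 459 to 620 RPKM at PND2 and 274 to 280 RPKM at 4 months, with 8 of 8 genes lower. Macrophage markers were 233 to 356 RPKM at PND2 and 453 to 573 RPKM at 4 months, with 6 of 8 genes higher, and cardiomyocyte markers were 12895 to 16245 RPKM at PND2 and 6010 to 10565 RPKM at 4 months, with 3 of 8 genes lower and 1, Mb, higher. In pooled whole valves, fewer cells of a type and less RNA per cell cannot be told apart, and the part of these shifts in the results was not tested. Schwann cell markers summed to 11.3 to 28.7 RPKM at PND2 and 41.2 to 48.8 RPKM at 4 months, with 2 of 5 genes higher, and none of the 5 erythroid genes passed the test.

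Of the 10 members, 5 passed the test between the ages (limma on log2(RPKM + 0.1), Benjamini-Hochberg adjusted p under 0.05 over 25903 genes). This was 50.0% of the members, beside 35.8% of all genes tested. Higher at 4 months were 4 members, Ptgs2, Ptgis, Ptger2 and Ptgir, where 14.7% of all genes were higher. Lower at 4 months was 1 member, Ptgds, where 21.1% of all genes were lower. No overlap between the ages was seen in 7 of 10 members, against 50.0% of all genes. The median log2 fold change was 1.01 over the members and -0.14 over all genes tested.

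**Figure D1:**
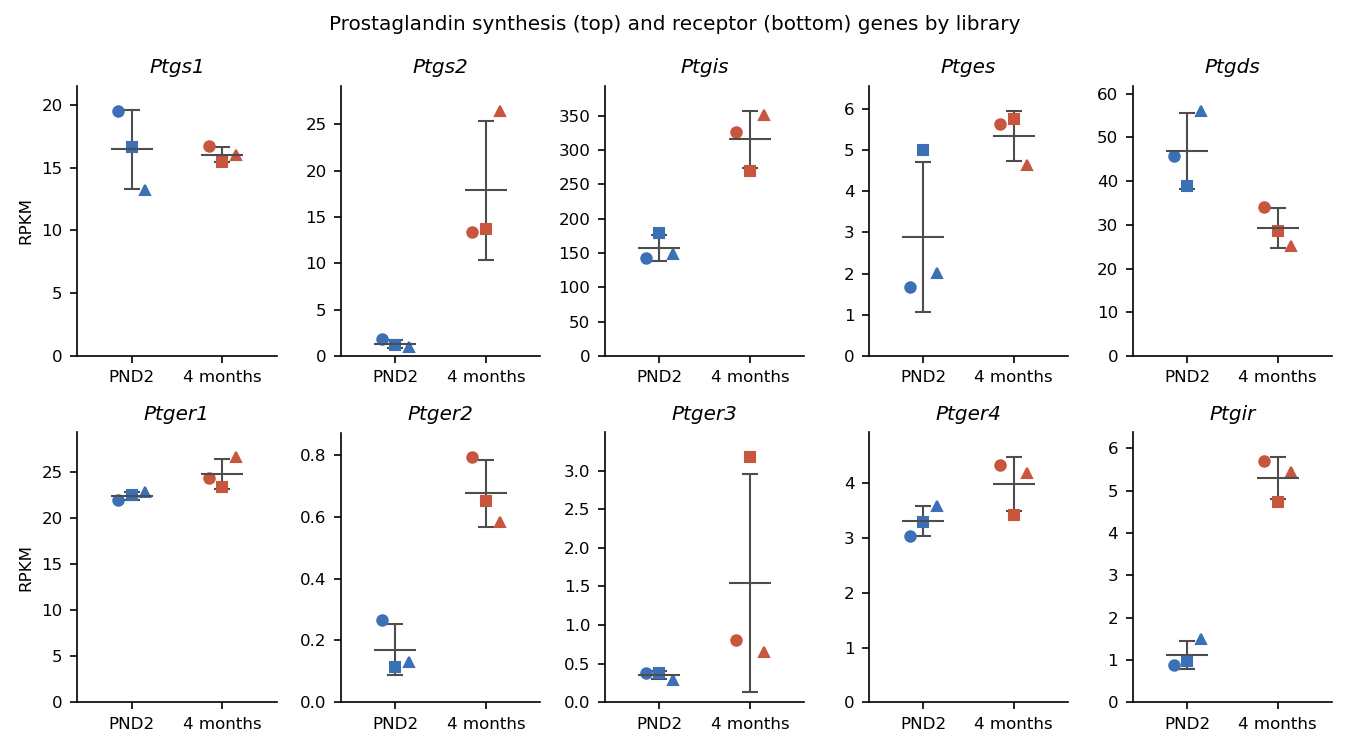
RPKM of each member in every library at PND2 (blue) and 4 months (red); circles, squares and triangles are replicates 1, 2 and 3, and grey lines give the mean and SD of 3 libraries. The 3 libraries at 4 months lie above the 3 at PND2 for Ptgs2, Ptgis, Ptger1, Ptger2, Ptger3 and Ptgir and below them for Ptgds.

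The cyclooxygenases parted with age. Ptgs2, the inducible cyclooxygenase, measured 1.81, 1.15 and 0.910 RPKM in the 3 PND2 libraries and 13.3, 13.7 and 26.5 RPKM in the 3 libraries at 4 months. Every 4 month library was above every PND2 library, and replicate 3 at 4 months was the highest. Mean Ptgs2 was 1.29 ± 0.465 RPKM (SD, n = 3) at PND2 and 17.8 ± 7.47 RPKM (SD, n = 3) at 4 months, 13.8-fold higher (log2 fold change 3.67 ± 0.34 SE, limma adjusted p = 0.000356). Without replicate 3 at 4 months the log2 fold change was 3.35. Ptgs1, the cyclooxygenase that most tissues express at a steady level, showed no such difference. Its values were 19.6, 16.6 and 13.2 RPKM at PND2 and 16.7, 15.5 and 16.0 RPKM at 4 months, so that the 4 month values lay inside the PND2 range. The log2 fold change of Ptgs1 was -0.02 ± 0.15 (SE, limma adjusted p = 0.941), and its sign changed with the scaling, to 0.10 with median scaling. Gm43621, annotated on the other strand, shares 3.81% of the Ptgs1 exonic length and measured 1.93 to 3.46 RPKM.

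The change in Ptgs2 ran along the whole transcript. Ptgs2 lies on chromosome 1 from 150100031 to 150108227 on the plus strand (mm10), and none of its exonic bases are shared with another annotated gene. It was covered by 122 to 3509 reads per library. Of its 12 exons with different coordinates, 11 reached 1 RPKM in some library, and in 11 of these 11 each 4 month library exceeded each PND2 library.

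Because RPKM is per length, the cyclooxygenases could also be compared within a library. Ptgs2 made up 8.46, 6.48 and 6.45% of the summed RPKM of Ptgs1 and Ptgs2 at PND2, and 44.4, 47.0 and 62.3% at 4 months. Cyclooxygenase transcripts were thus nearly all Ptgs1 in the newborn valve, and close to evenly split in the adult valve. The shares differed by 44.1 percentage points without overlap (exact permutation test, 2-sided p = 0.1, the smallest that 3 against 3 libraries allow). The summed level of both genes was 14.1 to 21.4 RPKM at PND2 and 29.2 to 42.5 RPKM at 4 months.

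Ptgs2 is known as an immediate early gene, one of those that cells switch on within minutes of a stimulus. A list of 12 such genes, chosen after values of this series were known, summed to 206 to 227 RPKM at PND2 and 722 to 1024 RPKM at 4 months, with 10 of 12 genes higher. The other 2 were Egr2 and Ier2, which did not pass. Atf3, a stress-responsive transcription factor, measured 15.8, 9.49 and 6.87 RPKM at PND2 and 133, 125 and 213 RPKM at 4 months. Replicate 3 at 4 months was the highest library for Atf3 as it was for Ptgs2. For Fos the highest was replicate 1, with 97.2, 32.3 and 39.6 RPKM in replicates 1, 2 and 3 at 4 months. The part of an early response, during life or tissue isolation, in the Ptgs2 level was not tested.

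The stretches before the start of both cyclooxygenase genes are shown because these sister genes differed between the ages. They are the 250 bases before the RefSeq gene start (GRCm38.p6), and 8 of the 10 members had an entry. Capitals mark matches, on either strand, to a GC box (GGGCGG), an E-box (CACGTG), a cyclic AMP response core (TGACG), a C/EBP palindrome (TTGCGCAA) or a TATA motif (TATAAA).

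Ptgs2, chr1:150099781-150100030, plus strand: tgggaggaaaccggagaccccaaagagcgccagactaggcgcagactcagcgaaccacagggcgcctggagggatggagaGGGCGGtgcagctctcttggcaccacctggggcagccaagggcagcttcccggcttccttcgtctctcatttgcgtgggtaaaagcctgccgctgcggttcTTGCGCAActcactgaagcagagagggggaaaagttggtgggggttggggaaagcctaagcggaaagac

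Ptgs1, chr2:36230176-36230425, plus strand: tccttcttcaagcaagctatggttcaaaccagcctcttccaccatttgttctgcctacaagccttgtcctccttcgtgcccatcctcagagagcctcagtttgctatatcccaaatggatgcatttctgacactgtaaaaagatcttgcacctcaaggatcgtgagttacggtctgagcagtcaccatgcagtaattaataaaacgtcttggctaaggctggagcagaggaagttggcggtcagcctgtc

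The Ptgs2 window held the C/EBP palindrome 69 to 62 bases before the start and a GC box 170 to 165 bases before it. The palindrome occurred in 0.164% of the 32851 windows of this length in the table and the GC box in 32.7%. Neither the E-box (6.02% of windows), the response core (17.8%) nor the TATA motif (12.4%) was found in the Ptgs2 window, and none of the 5 motifs was found in that of Ptgs1. These are matches of letters only, and the bases after the annotated start were not searched.

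Among the terminal synthases, prostacyclin synthase rose and prostaglandin D synthase fell. Ptgis was the most abundant member at both ages, with 143, 179 and 149 RPKM at PND2 and 326, 270 and 351 RPKM at 4 months. The lowest 4 month library was above the highest PND2 library. The mean went from 157 ± 19.1 RPKM (SD, n = 3) to 316 ± 41.8 RPKM (SD, n = 3), a log2 fold change of 1.01 ± 0.14 (SE, limma adjusted p = 0.00174). In 14 of 14 Ptgis exons each 4 month library exceeded each PND2 library. Smooth muscle markers were 2.63-fold higher in sum at 4 months, with 27581, 16638 and 19948 RPKM in replicates 1, 2 and 3. Interstitial cell markers were 1.33-fold higher in sum, with 2 of 8 genes higher and 4 lower. In replicates 1, 2 and 3 they summed to 6501, 7152 and 6928 RPKM at PND2. At 4 months these sums were 9226, 8033 and 10135 RPKM. The part of either cell type in the Ptgis level was not tested. An antisense transcript, 1110018N20Rik, shares 6.08% of the Ptgis exonic length but measured only 1.43 to 4.37 RPKM.

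Ptgds measured 45.8, 38.8 and 56.2 RPKM at PND2 and 34.0, 28.7 and 25.1 RPKM at 4 months. All 4 month libraries were below all PND2 libraries. The log2 fold change was -0.67 ± 0.17 (SE, limma adjusted p = 0.0187). The call was lost without PND2 replicate 3 (adjusted p = 0.0575), without 4 month replicate 2 (0.0512) and without 4 month replicate 3 (0.0657), with no filter on low genes (0.0937) and with an unequal-variance test per gene (0.102). All 15 distinct Ptgds exons had a lower mean at 4 months, but in only 6 of them did the ages not overlap. Melanocyte markers moved in the same direction, from 54.0 to 102 RPKM at PND2 to 33.8 to 57.5 RPKM at 4 months with 3 of 6 genes lower, as did the endothelial markers given above. Their part in the Ptgds level was not tested.

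Ptges, the inducible prostaglandin E synthase, measured 1.67, 4.99 and 2.02 RPKM at PND2 and 5.64, 5.76 and 4.63 RPKM at 4 months. PND2 replicate 2 lay within the range of the 4 month libraries and stood apart from PND2 replicates 1 and 3. The log2 fold change of 1.02 ± 0.39 (SE) did not pass the test (limma adjusted p = 0.0784). Without PND2 replicate 2 it was 1.49 with an adjusted p of 0.00512, and with voom on the recovered reads it was 1.08 with an adjusted p of 0.0301, so the call rests on that library and on the method.

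Set side by side per length, Ptgis held 75.1, 80.3 and 71.9% of the summed RPKM of these 3 synthases at PND2 and 89.2, 88.7 and 92.2% at 4 months. Ptgds held 24.0, 17.4 and 27.1% at PND2 and 9.30, 9.43 and 6.57% at 4 months. The share of Ptges stayed between 0.877 and 2.24% in every library. The order Ptgis, Ptgds, Ptges was the same in all 6 libraries.

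**Figure D2:**
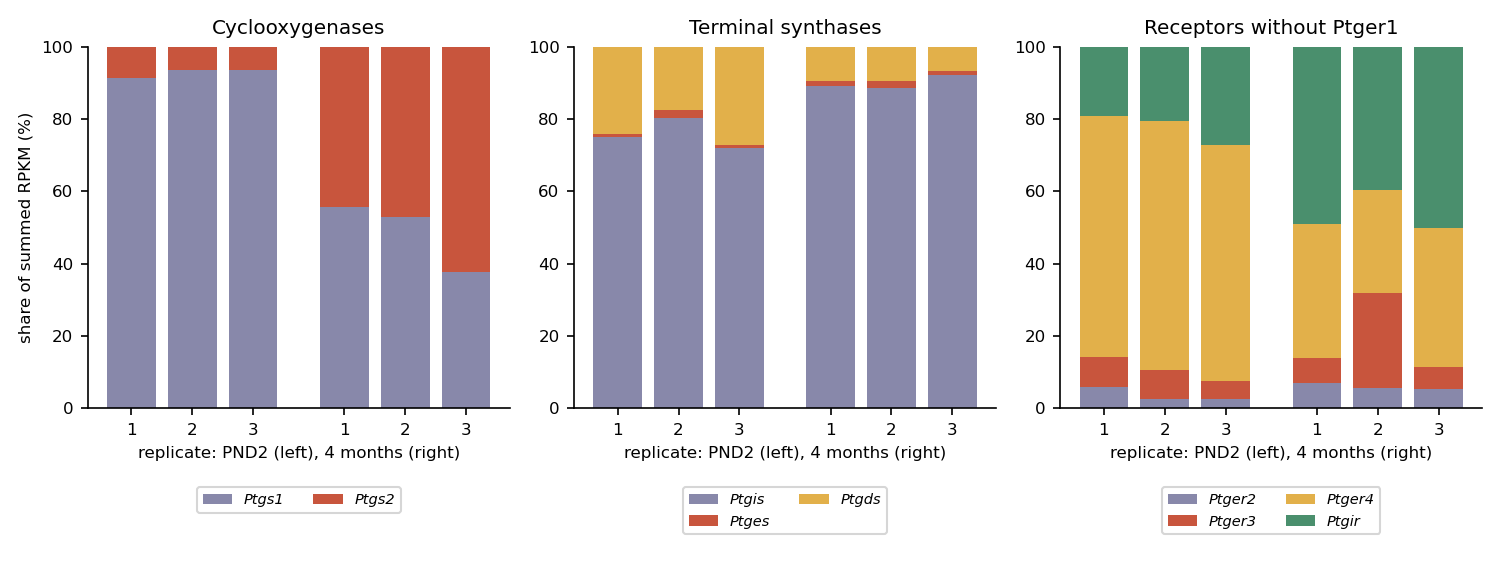
Share (%) of the summed RPKM within each library held by the cyclooxygenases, the 3 terminal synthases and the receptors other than Ptger1; bars are the 3 libraries at PND2 (left) and at 4 months (right). Ptgs2 goes from at most 8.46% to at least 44.4%, Ptgis from at most 80.3% to at least 88.7%, and Ptgir from at most 27.2% to at least 39.6%.

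The receptors followed different courses. Ptgir, the prostacyclin receptor, measured 0.877, 0.983 and 1.50 RPKM at PND2 and 5.70, 4.74 and 5.44 RPKM at 4 months. The ages were well apart. Relative to the mean, the spread was wider at PND2, where the values stand for 100 to 146 reads, than at 4 months. Mean Ptgir rose from 1.12 ± 0.331 RPKM (SD, n = 3) to 5.29 ± 0.499 RPKM (SD, n = 3), 4.73-fold, with a log2 fold change of 2.17 ± 0.24 (SE, limma adjusted p = 0.000758). Its 5 distinct exons were all higher in each 4 month library than in each PND2 library. Prostacyclin synthase and the prostacyclin receptor were thus both among the members that rose.

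The window before the start of Ptgir held 2 GC boxes, at 76 to 71 and 13 to 8 bases before the start, and none of the other 4 motifs. GC boxes were not particular to members that rose. Ptges, Ptger3 and Ptger4, which did not pass the test, had 2, 3 and 4 of them. The windows of Ptger2, which was higher, and Ptgds, which was lower, had 0 motif matches. No entry for Ptgis was found in the table.

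Ptgir, chr7:16906240-16906489, plus strand: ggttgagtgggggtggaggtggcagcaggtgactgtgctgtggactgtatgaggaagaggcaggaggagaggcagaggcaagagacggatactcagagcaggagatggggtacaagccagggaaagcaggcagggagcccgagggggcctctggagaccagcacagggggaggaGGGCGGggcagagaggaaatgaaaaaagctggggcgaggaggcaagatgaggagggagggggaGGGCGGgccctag

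Ptger2, a prostaglandin E receptor that raises cyclic AMP, was the lowest member. It measured 0.265, 0.116 and 0.130 RPKM at PND2 and 0.792, 0.650 and 0.581 RPKM at 4 months. The ages did not overlap, but the values stand for only 13 to 38 reads at PND2 and 57 to 109 reads at 4 months. The log2 fold change was 1.55 ± 0.35 (SE, limma adjusted p = 0.0126). It lay between 0.52 with a pseudocount of 1 and 2.02 over the settings tried, so its size is uncertain at this depth.

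Ptger3, a prostaglandin E receptor that lowers cyclic AMP and is well known from fat tissue, measured 0.379, 0.386 and 0.288 RPKM at PND2 and 0.805, 3.17 and 0.656 RPKM at 4 months. Replicate 2 at 4 months was far above replicates 1 and 3, although all 4 month libraries exceeded all PND2 libraries. The log2 fold change of 1.54 ± 0.56 (SE) did not pass the test (limma adjusted p = 0.0685). Without that library it was 0.88 with an adjusted p of 0.107.

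The same library stood apart in adipocyte genes. The 6 adipocyte markers summed to 339, 1391 and 322 RPKM in replicates 1, 2 and 3 at 4 months and to 63.8 to 147 RPKM at PND2, with 5 of 6 higher at 4 months. At PND2 nearly all of the sum was Fabp4, while Cidec and Lep were at 0 in all 3 libraries and Adipoq was at most 0.198 RPKM. The part of adipocytes in the Ptger3 level was not tested.

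**Figure D3:**
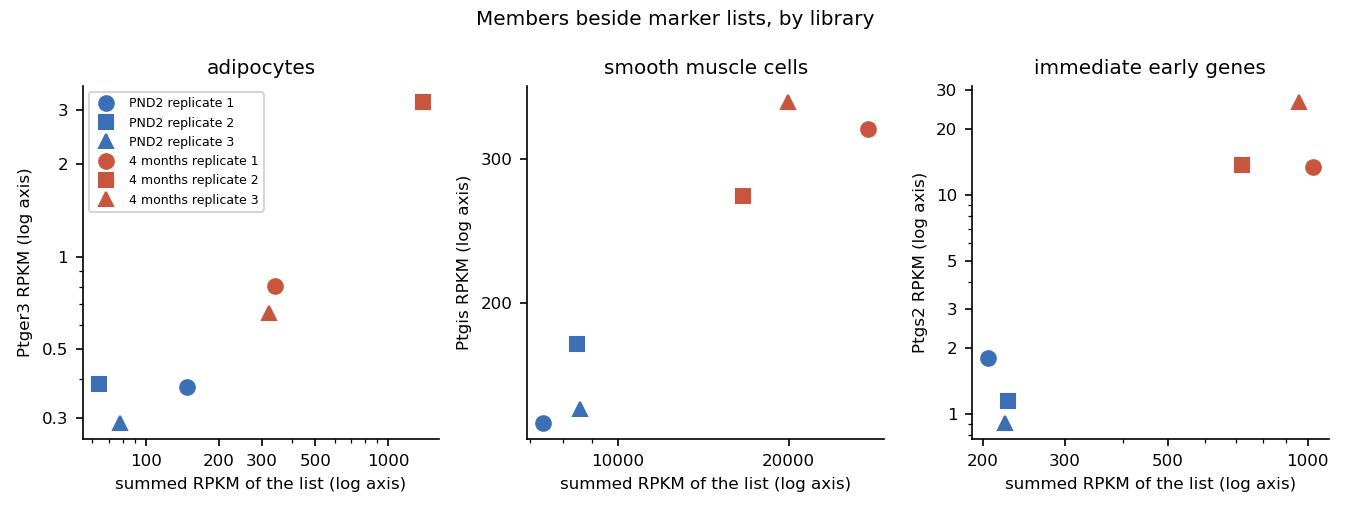
Level of a member (RPKM, log axis) against the summed RPKM of a gene list (log axis), a point per library, PND2 in blue and 4 months in red. Replicate 2 at 4 months is the highest library for Ptger3 (3.17 RPKM) and for adipocyte markers (1391 RPKM). Ptgis and Ptgs2 are highest in replicate 3 at 4 months. The smooth muscle sum (27581 RPKM) is highest in replicate 1 at 4 months, as is the immediate early sum (1024 RPKM, with 959 RPKM in replicate 3). These ranks were not tested.

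Ptger4, the other prostaglandin E receptor that raises cyclic AMP, measured 3.04, 3.30 and 3.58 RPKM at PND2 and 4.33, 3.41 and 4.19 RPKM at 4 months. The ages overlapped, and the log2 fold change of 0.26 ± 0.18 (SE) did not pass the test (limma adjusted p = 0.303). On the other strand, the pseudogene Gm15937 (at most 0.238 RPKM) shares 15.3% of the Ptger4 exonic length. Ttc33 (13.0 to 21.9 RPKM), also on that strand, shares 1.23%. The gene value of Ptger4 averages over parts that differed widely. Its longest exon, of 3124 bases, shares bases with another gene and measured 0.796 to 1.44 RPKM. The exon on chromosome 15 from 5233399 to 5235222, without such an overlap, measured 6.17, 6.43 and 6.91 RPKM at PND2 and 9.16, 7.41 and 9.26 RPKM at 4 months. In that exon the ages did not overlap. No test was made on single exons.

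**Figure D4:**
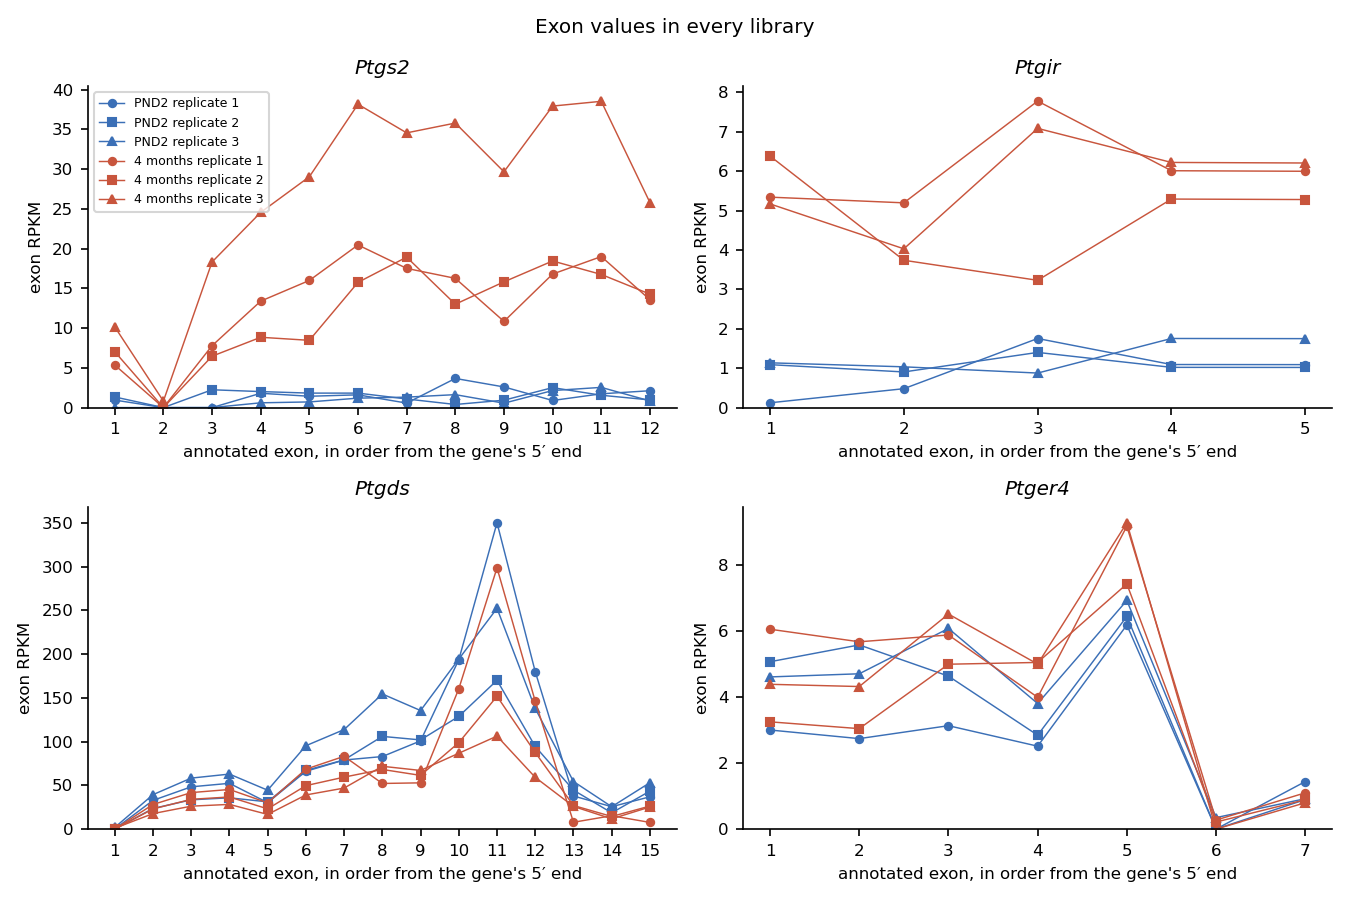
RPKM of each exon with different coordinates, in order from the 5′ end of Ptgs2, Ptgir, Ptgds and Ptger4, with a line per library (PND2 blue, 4 months red; circles, squares and triangles are replicates 1, 2 and 3). In Ptgs2 and Ptgir the ages part in 11 and 5 exons, in Ptgds they overlap in most exons, and in Ptger4 the longest exon, the last one drawn, lies at 0.796 to 1.44 RPKM.

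Ptger1, a prostaglandin E receptor that raises cell calcium, had the highest receptor value at both ages, with 22.0, 22.6 and 22.8 RPKM at PND2 and 24.4, 23.4 and 26.7 RPKM at 4 months. The 4 month libraries were all above the PND2 libraries, by a small margin, and the log2 fold change of 0.14 ± 0.09 (SE) did not pass the test (limma adjusted p = 0.282). The value itself is uncertain, since part of the exons overlaps other annotation. The exon on chromosome 8 from 83667879 to 83668846, without such an overlap, measured 21.7 to 25.5 RPKM over all libraries. The counting did not separate strands, since all 15 pairs of exons above 0 with the same coordinates on opposite strands had equal values in every library. Receptor shares are therefore also given without Ptger1.

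At PND2 the receptors other than Ptger1 ranked Ptger4 (mean 3.31 RPKM), Ptgir (1.12), Ptger3 (0.351) and Ptger2 (0.170), and no neighbours in that order overlapped. At 4 months the order was Ptgir (5.29), Ptger4 (3.98), Ptger3 (1.55) and Ptger2 (0.674), where Ptger3 and Ptger2 overlapped. Ptgir held 19.2, 20.6 and 27.2% of the summed RPKM of these 4 receptors at PND2 and 49.0, 39.6 and 50.1% at 4 months. Ptger4 held 66.7, 69.0 and 65.2% at PND2 and 37.3, 28.5 and 38.5% at 4 months. By gene value, the leading receptor of the 4 thus differed between the ages in each library. This order depends on the exons counted. At 4 months the Ptger4 exon from 5233399 to 5235222 measured 7.41 to 9.26 RPKM. The longest Ptgir exon measured 5.28 to 6.21 RPKM at that age. With Ptger1 counted, Ptgir held 3.30 to 5.28% at PND2 and 13.4 to 15.8% at 4 months, and Ptger1 held 66.2 to 82.8% throughout.

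The other genes of the pathway were taken from lists of 44 genes, of which 36 could be tested. Higher at 4 months were 13, lower were 3, and 20 did not pass. The share called was 44.4% of the 36 genes, beside 35.8% of all genes tested, and their median log2 fold change was 0.37, beside -0.14.

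Upstream of the cyclooxygenases, 4 of 11 phospholipase genes tested were higher at 4 months and 1 was lower, with a median log2 fold change of -0.26. Pla2g4a, the cytosolic phospholipase that frees arachidonic acid on stimulation, measured 4.37, 7.13 and 6.03 RPKM at PND2 and 17.7, 16.2 and 19.3 RPKM at 4 months (log2 fold change 1.61 ± 0.19 SE, limma adjusted p = 0.00095). Its ages were well apart. Pla2g2d, a secreted phospholipase, was at 0.0438 to 0.0686 RPKM at PND2 and at 5.18 to 6.47 RPKM at 4 months (log2 fold change 5.19, limma adjusted p = 3.4e-05). These PND2 values stand for 3 to 6 reads, against 288 to 434 reads at 4 months, so that the fold depends on the pseudocount. Pla2g16, a phospholipase of fat tissue, rose by 0.76 on the log2 scale and Pla2g2e, at under 1 RPKM, by 1.08, while Pla2g4b fell by 0.58 on the log2 scale.

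Of 7 other synthase genes, 2 rose and 1 fell. Hpgds, the prostaglandin D synthase of blood cells, went from a mean of 2.00 RPKM to 3.60 RPKM (log2 fold change 0.82, limma adjusted p = 0.0152), the opposite direction to Ptgds. Akr1b3, an aldo-keto reductase that can make prostaglandin F, went from 5.09 to 8.90 RPKM (log2 fold change 0.80, limma adjusted p = 0.00724). Ptges2, another prostaglandin E synthase, went from 9.50 to 6.42 RPKM (log2 fold change -0.57, limma adjusted p = 0.0266). Macrophage markers, higher at 4 months, moved with Hpgds, and their part in its level was not tested.

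Ptgfr, the receptor for prostaglandin F, changed most among the receptor genes of either list. Of the 4 genes tested in the list of other receptors, which also holds Ptgfrn, Ptgfr was the 1 that passed. It measured 0.371, 0.324 and 0.318 RPKM at PND2 and 6.77, 7.22 and 5.60 RPKM at 4 months, 19.4-fold higher (log2 fold change 3.92 ± 0.22 SE, limma adjusted p = 5.2e-05). The ages lay far apart. Tbxa2r, the thromboxane receptor, overlapped between the ages, with 11.7 to 17.0 RPKM at PND2 and 13.5 to 23.2 RPKM at 4 months (limma adjusted p = 0.228). Ptgdr, a receptor for prostaglandin D, was too low to test.

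Of 6 genes of prostaglandin transport and breakdown, 3 were higher at 4 months and 3 did not pass. Hpgd, which inactivates prostaglandins, measured 21.2, 14.3 and 11.4 RPKM at PND2 and 38.5, 31.1 and 27.2 RPKM at 4 months (log2 fold change 1.07 ± 0.24 SE, limma adjusted p = 0.0117). Its ages did not overlap, though it varied within each. Ptgr1, which acts in the next step of breakdown, rose by 0.95 on the log2 scale, and Abcc4, an exporter of prostaglandins, by 1.12. Slco2a1, which takes prostaglandins up, overlapped between the ages with means of 7.47 and 9.40 RPKM.

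The leukotriene branch, which competes for arachidonic acid, had 3 higher and 1 lower of 8 genes tested. Alox5 (log2 fold change 2.28), its partner Alox5ap (1.24) and Ltc4s (2.07), which act in a row towards the cysteinyl leukotrienes, were higher at 4 months. Lta4h, which makes leukotriene B, fell from a mean of 119 RPKM to 62.4 RPKM (log2 fold change -0.93, limma adjusted p = 0.000417). Leukocytes are known for this branch. Macrophage markers were 1.75-fold higher at 4 months in sum, and mast cell markers went from 122 to 174 RPKM down to 56.3 to 73.0 RPKM with 5 of 7 genes lower. Neutrophil markers were at 25.5 to 31.9 RPKM at PND2 and at most 1.36 RPKM at 4 months, and T cell markers summed to 3.77 to 9.02 RPKM at PND2 and 3.18 to 4.32 RPKM at 4 months, with 4 of 6 genes higher (Cd3e, Cd3d, Cd3g and Cd2) and 2 lower (Lck and Trac). The part of these cells in the branch was not tested.

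**Figure D5:**
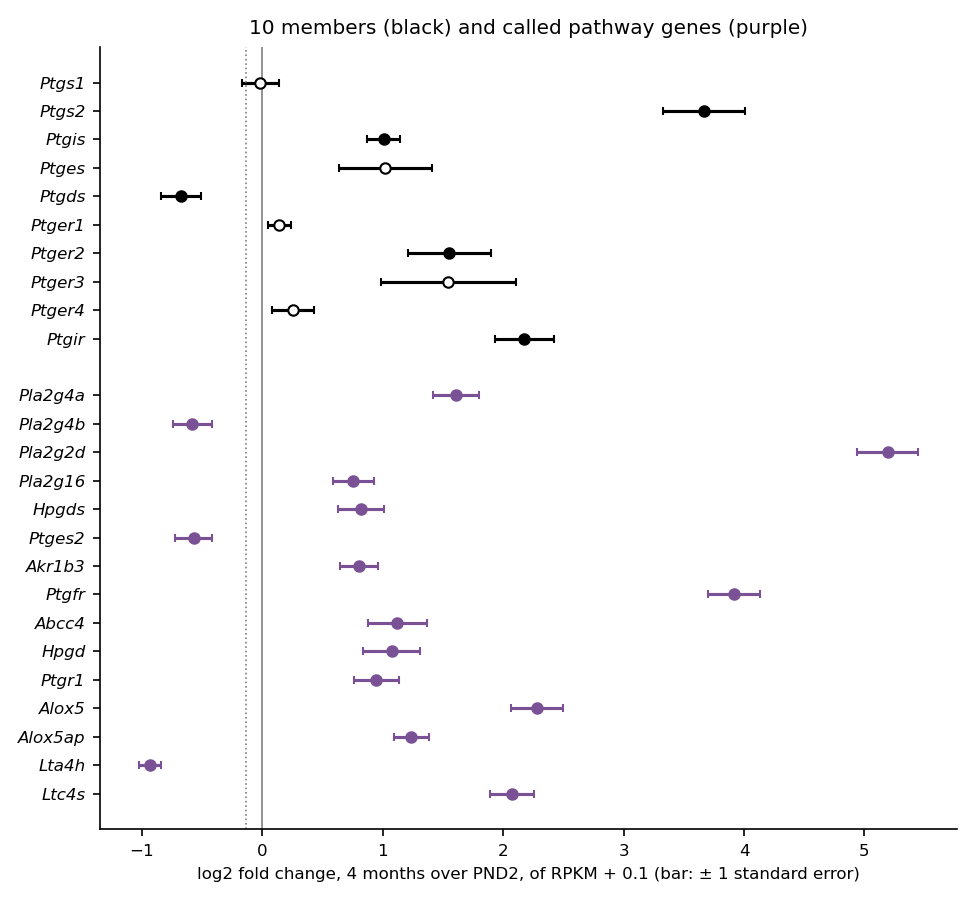
Log2 fold change (4 months over PND2, of RPKM + 0.1) with ± 1 standard error for the 10 members (black) and the pathway genes that passed the test with a mean of at least 1 RPKM at either age (purple); filled points passed, open points did not, and the dotted line is the median of all genes tested, -0.14. Pla2g2d (5.19), Ptgfr (3.92) and Ptgs2 (3.67) lie farthest to the right.

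The genes whose pattern over the 6 libraries was most like that of a member were found by Pearson's correlation of log2(RPKM + 0.1) among 20000 genes with a mean of at least 1 RPKM, as a description. Those nearest to Ptgs2 were 1810013L24Rik, Hist1h2bp and Ubl3 (lowest r 0.998). Those nearest to Ptgir were Itih4, Cygb and Gsdmd (lowest r 0.999), and those nearest to Ptgis were Plac9b, Rarg and Gm9780 (lowest r 0.998). Those nearest to Ptgs1 were Cep19, Rps19-ps11 and Spock2 (r of 0.974 to 0.987). For Ptges, Ptgds, Ptger1 and Ptger4 the 3 nearest genes had r of 0.981 to 0.999. Each correlation rests on 6 points, and the points of the changed genes fall into the groups of the ages.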

How the data were processed

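Aortic valve RNA was sequenced in 3 libraries per age. Per the study's methods, the authors trimmed the reads, aligned them with TopHat2 2.1.0 to mm10 and counted them per gene and exon with easyRNASeq on Ensembl models, from a library kit that marks strand. The authors deposited RPKM values per gene and per exon, without pooling libraries. All values corresponded to whole reads (100% within 0.01), which gave the read numbers. For a gene of 1 kb, 1 read corresponded to 0.0256 to 0.0420 RPKM.

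Members were matched by gene symbol. Genes that reached 0.1 RPKM in 3 or more libraries entered a 2-sided limma fit (version 3.58.1, R 4.3.3) of log2(RPKM + 0.1) on age, with eBayes, a mean-variance trend and Benjamini-Hochberg adjustment. Fold changes of low genes are understated on this scale. The p-values measure the spread between pools. A single value was tested by exact permutation. Alternatives were other pseudocounts, filters, scalings and tests, a replicate block and each library left out. Shares without Ptger1 were added after the data were seen. An overlapping gene is not reported here. Named are all members, pathway genes that passed with a mean of at least 1 RPKM, summed markers, genes overlapping a member and the 3 genes nearest to a member. Others were chosen after their values were seen. The members and lists were chosen with earlier results of these data known. Steps were tested on simulated data. Promoter sequences come from RefSeq (GRCm38.p6). Computation used Python 3.11.15, pandas 2.3.3, numpy 2.4.6 and scipy 1.17.1, with the R package data.table at version 1.17.8, and plots used matplotlib 3.10.9.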

Additional observations from a re-analysis of the deposited data

How the results depend on the processing

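Ptgs2, Ptgis and Ptgir passed under all 17 alternatives, with log2 fold changes of 2.99 to 3.92, 0.93 to 1.13 and 1.58 to 2.39. Ptger2 passed under 15 of the 16 alternatives that tested it, Ptgds under 12 of 17 and Ptges under 2 of 17. With an unequal-variance test per gene, the kind of test the study used but run here on log2(RPKM + 0.1) with the same filter and threshold as limma, 3 members passed, none of them lower at 4 months, and 7 pathway genes passed in place of 16. That test called 3408 of all genes, against 9273 with limma. With no filter on low genes, 0 members were lower. Leaving out a library gave 4 to 6 members called, 4 to 5 higher, 0 to 1 lower, and 13 to 16 pathway genes called. The log2 fold change of Ptgs1 lay between -0.17 and 0.12 when a library was left out. It was 0.10 with median scaling and 0.053 with quantile normalization. It did not pass in any of these. Median scaling moved the split of all calls from 3810 higher and 5463 lower to 4601 higher and 4129 lower. Left without Ptger1, the receptor share of Ptgir at 4 months was 46.2% in place of 14.6%.

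Same replicate numbers gave no sign of paired libraries. The correlations of the deviations of same-numbered libraries were 0.044, -0.061 and -0.160. Those of differently numbered libraries ran from -0.176 to 0.233. So few values cannot show that pairing was absent. With the number as a block, 5 members, 13 pathway genes and 7167 of all genes passed, and the difference in the Ptgs2 share had an exact p of 0.25, the smallest possible with 3 pairs. Depth limits Ptger2, at 13 to 109 reads, and Ptger3, at 48 to 430 reads.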
